A study of Saccharomyces cerevisiae with 6 samples.

Results

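The mitochondrial ribosomal protein genes of Saccharomyces cerevisiae were followed in polyA RNA libraries of 1 yeast strain, taken 180 min and 0 min after a hormone that starts Cre recombination. Members were chosen by name: every gene of the count table whose standard name in the R64 annotation is MRPL, MRPS, MRP or RSM followed by a number. This rule gave 67 of 7127 genes in the table, of which 38 encode large subunit proteins and 28 small subunit proteins. The remaining member, MRP8, carries such a name, but its annotation says that it was only originally thought to be a mitochondrial ribosomal protein, so it was kept out of both subunits. RSM22 was counted with the small subunit, although it is known as an associated factor resembling methyltransferases and not as a core protein. Of the 66 subunit members, 41 have a counterpart in the bacterial ribosome, 24 are specific to mitochondria, and RSM22 is in neither class.

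The series belongs to a study of mitotic chromosome condensation and of transcription after anaphase. All 6 libraries came from the same haploid MATa strain in the S288c background, grown in YPD at 30 °C. The strain carried Shs1-loxP-mCherry followed by the Cln2 3′UTR, the NatNT2 marker and loxP-GFP at the septin gene SHS1, Cre-EBD78 at leu2, TetO at trp1, LacO at lys4, LacR-GFP at his3, TetR-mCherry, and ade2. In the 3 mCh- libraries, RNA was collected 180 min after 1 µM beta-estradiol, by which time the floxed mCherry part had been excised according to the labels; the counts used here do not measure the excision. In the 3 mCh* libraries, RNA was collected 0 min after the same 1 µM beta-estradiol. Both groups carried all of these alleles, and the labels name 3 independent experiments. Time in culture, time with the hormone and the excised reporter differ together between the groups and cannot be told apart here.

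Mitochondrial ribosomes translate the few proteins encoded by mitochondrial DNA, nearly all of them subunits of the respiratory chain and of the ATP synthase. Almost all of their proteins are encoded in the nucleus, made in the cytosol and imported, while their ribosomal RNAs and the small subunit protein Var1 are encoded by mitochondrial DNA. In yeast, many messenger RNAs of this family are bound after the stop codon by the RNA-binding protein Puf3, which recognises a short motif and promotes the decay of its targets in glucose.

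The members' downstream regions were therefore searched for TGTANATA, the Puf3 motif in DNA letters, on the sense strand. Among the 200 bases after the stop codon, the motif was found in 65 of 67 members (97.0%, 95% exact binomial interval 89.6 to 99.6%), against 844 of 5989 nuclear protein-coding genes (14.1%). All 38 large subunit members and 27 of 28 small subunit members held it. The genes without it were RSM22 and MRP8. Among the 137 genes of cytosolic ribosomal proteins, 6 held the motif (4.38%), and among 34 nuclear genes of the respiratory chain and ATP synthase, 5 did (14.7%). Several other lists of mitochondrial translation genes, described below, also held it. It was present for all 14 mitoribosomal proteins named by another pattern and all 4 genes of membrane insertion. All of 17 tRNA charging genes but GTF1, and all of 9 translation factors but FMT1 and MEF2, held it. The assembly genes MTG1 and MRM1 and the translational activators CBS1, ATP22, PET122 and PET54 lacked it. The 79 matches in members included none that lay inside another coding gene, and 13 members had more than 1 match. The match nearest to the stop codon began 8 to 139 bases after it, with a median of 51. With a window of 100 bases, 89.6% of members held the motif, against 10.2% of nuclear protein-coding genes. With 300 bases the shares were 97.0% and 16.2%. A C at the second base before the motif, also known from Puf3 targets, was present for 52 of 67 members (77.6%) and for 4.22% of nuclear protein-coding genes. A match is only a run of letters and no measurement of binding.

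The sites below belong to subunit members with the motif whose values are given later: 3 of the largest rises in each subunit, the largest fall in each subunit, and MRPL23, whose difference was closest to 0. Coordinates are 1-based on R64 with the RefSeq sequence, each site reads 5′ to 3′ on the gene's strand, and capitals mark the motif. 
MRPL22, chrXIV:303537-303556, minus strand: tgattcTGTAAATAacaact
MRPL25, chrVII:637013-637032, minus strand: taatcaTGTAAATAattttg
MRP49, chrXI:133683-133702, minus strand: tgttcaTGTATATAtcaaaa
RSM10, chrIV:540467-540486, plus strand: cgtactTGTAAATAaaatag
RSM23, chrVII:267631-267650, minus strand: ttctcaTGTACATAtaaata
RSM19, chrXIV:695001-695020, minus strand: atatcaTGTAAATAagatca
MRPL32, chrIII:119211-119230, plus strand: taagccTGTATATAgaaact
MRP21, chrII:49406-49425, plus strand: cgtcttTGTAAATAggtaat
MRPL23, chrXV:612540-612559, plus strand: aatccaTGTATATAtttatc
Each was shown because it holds the motif, while MRP8, with the largest rise of all members, and RSM22 hold none. The freely varying base N of the motif was A, T or C in these sites. RSM19 had 3 matches, of which the one with C at the second base before the motif is shown.

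**Figure D1:**
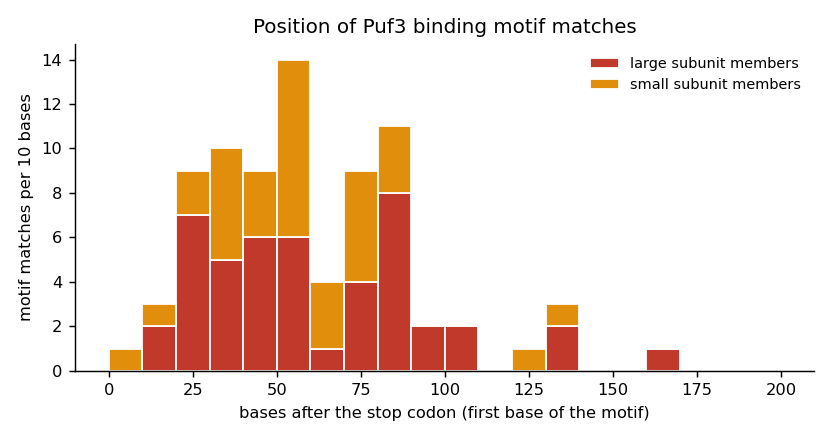
The horizontal axis is the distance in bases from the stop codon to the first base of each TGTANATA match, and the vertical axis the number of matches per 10 bases, stacked for large and small subunit members. The nearest match of a member began 8 to 139 bases after the stop codon, with a median of 51.

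Library totals were between 25987900 and 34032212 counts. Single members had 662 to 10561 counts in a library, so counting error alone gives a coefficient of variation of 3.89% at the lowest of them. Values below are CPM, counts scaled to a library size that edgeR's TMM factors adjust. These factors averaged 1.09 ± 0.0165 in mCh- libraries and 0.916 ± 0.0135 in mCh* libraries (SD, n = 3 each). The 6 MATa markers had a summed level of 1684 to 1948 CPM in mCh- libraries and 2555 to 3033 CPM in mCh* libraries. MFA1, MFA2, STE2 and STE6 were lower in every mCh- library than in any mCh* library. BAR1 (255 to 314 CPM in mCh-, 264 to 320 CPM in mCh*) and AGA2 (87.4 to 98.1 CPM in mCh-, 85.5 to 93.4 CPM in mCh*) overlapped. Of 6 MATalpha markers 4 were below 1 CPM in every library. SAG1 had 15.2 to 18.2 CPM in mCh- and 15.2 to 17.6 CPM in mCh* libraries, and STE3 4.98 to 6.81 CPM and 4.21 to 6.15 CPM. The cytosolic ribosomal protein genes took 21.0 ± 0.151% of all counts in mCh- libraries and 33.0 ± 0.398% in mCh* libraries (SD, n = 3 each), a change that touches every share given below. In bulk RNA, fewer cells of a type and less RNA per cell cannot be told apart.

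Changes in the family were small, and the members that passed the test were mainly higher at 180 min. Of 67 members, 24 were called higher, 3 lower and 40 not called at an adjusted p below 0.05 (two-sided quasi-likelihood test of edgeR, Benjamini-Hochberg adjustment over all 6220 genes tested). Across all genes tested, 57.7% were called, 29.5% higher and 28.2% lower. The members' share of higher calls (35.8%) was near that background, and their share of lower calls was 4.48%. The median log2 fold change of the 66 subunit members was 0.14, with an interquartile range of 0.02 to 0.24, beside a median of 0.02 over all genes tested. It was above 0 for 51 of the 66.

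The counts of calls depended on single libraries. Without mCh- replicate 3, 13 members were called higher and 4 lower (27.5% and 27.3% of all genes tested). Without mCh* replicate 2 there were 15 and 3 (25.4% and 24.6%), and without mCh* replicate 3 there were 15 and 5 (28.1% and 27.2%). Leaving out one of the other libraries gave 20 and 4 without mCh- replicate 1 (26.5% and 25.8% of all genes), 16 and 2 without mCh- replicate 2 (25.8% and 25.3%), and 18 and 2 without mCh* replicate 1 (26.5% and 25.5%). Of the 24 higher members, 8 kept the call in all 6 of these fits: MRPL22, MRPL25, MRP49, MRPL31, RSM10, RSM18, RSM23 and MRP8. Of the 3 lower members, MRPL32 and MRP21 kept it.

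With library sizes alone, without composition factors, the median over all genes was higher by 0.25, at 0.27, and 75.6% of all calls were higher in place of 51.1%. On that scale 57 members were called higher and 1 lower, beside 48.2% and 15.6% of all genes, and the subunit members' median was 0.40. At an adjusted p below 0.01, 8 members were higher and 2 lower, beside 23.3% and 22.6% of all genes. Among nuclear protein-coding genes alone, 22 were higher and 4 lower, beside 31.1% and 30.5%. Another test, DESeq2, called 19 members higher and 3 lower, beside 26.6% and 27.6% of all genes. Its calls were 12 and 2 in the large subunit and 6 and 1 in the small subunit.

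The spread among members was small. The SD of the log2 fold change over the 66 subunit members was 0.19, beside 0.60 over all nuclear protein-coding genes. It was 0.20 over cytosolic ribosomal protein genes, 0.16 over 14 mitoribosomal proteins with other names and 0.33 over 34 respiratory chain and ATP synthase genes. The 95% interval of the fold change lay within 1.5-fold in either direction for 63 of the 66 (95.5%), against 47.5% of all genes tested and 51.2% of nuclear protein-coding genes. Groups did not overlap for 27 of the 66 with higher values in mCh- libraries and for 2 with lower values. Over all genes tested, groups did not overlap for 63.4%, with 32.7% of all genes higher and 30.8% lower. These comparisons are descriptions and were not tested. Spread and interval width also depend on read depth, and the genes compared were not matched for it. Every member had at least 662 counts in each library, while some other tested genes had fewer.

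**Figure D2:**
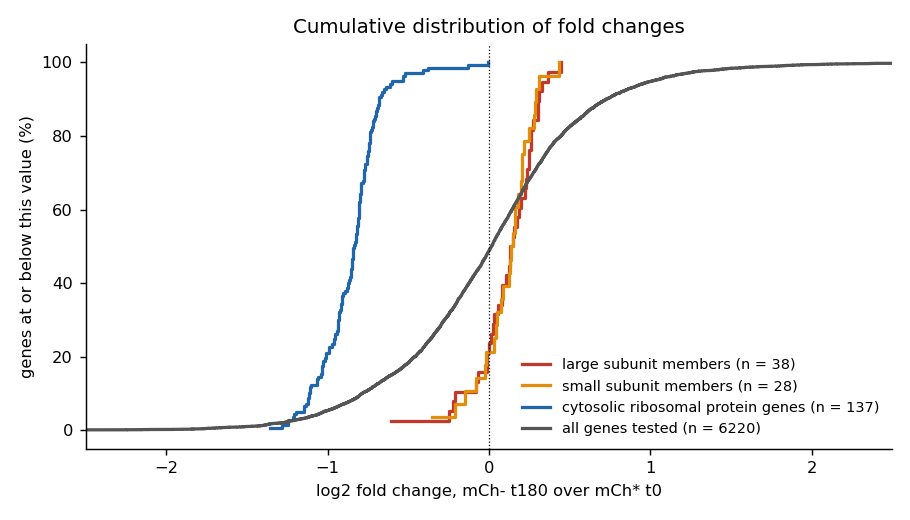
The horizontal axis is the log2 fold change, mCh- t180 over mCh* t0, and the vertical axis the percent of genes at or below it, for large subunit members, small subunit members, cytosolic ribosomal protein genes and all genes tested. Both subunits had a median of 0.14 and lay on top of each other, with all genes spread more widely around 0.02 and the cytosolic ribosomal protein genes around -0.84.

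The medians of the large and the small subunit lay together. In the large subunit, 15 of 38 members were called higher (39.5%), 2 lower (5.26%) and 21 not called. In the small subunit 8 of 28 were called higher (28.6%), 1 lower (3.57%) and 19 not called. Of all genes tested, 29.5% were called higher and 28.2% lower. Their medians were 0.14 each, and the large subunit's was lower than the small subunit's by less than the SD of that difference between libraries, 0.0272. Without mCh- replicate 2 and without mCh* replicate 3 the large subunit's median was the higher one, by 0.024 and 0.032. Taking 1 large and 1 small subunit member at a time, the large one had the higher fold change in 51.7% of pairs. The large subunit's 15 higher calls became 8 without mCh- replicate 2, 8 without mCh- replicate 3 and 9 without mCh* replicate 2. The small subunit's 8 became 4 without mCh- replicate 3, 5 without mCh* replicate 2 and 4 without mCh* replicate 3, and its median became 0.076 without mCh* replicate 3. The 2 lower calls of the large subunit became 1 without mCh- replicate 2 or mCh* replicate 1. The 1 lower call of the small subunit became 2 without mCh- replicate 1, mCh- replicate 3 or mCh* replicate 3. The shares of all genes called in each of these fits are given above.

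Summed over the large subunit, members had 2535, 2529 and 2593 CPM in the 3 mCh- libraries, against 2492, 2368 and 2312 CPM in the 3 mCh* libraries. The small subunit summed to 2193, 2130 and 2217 CPM in mCh- libraries, against 2102, 2006 and 1913 CPM in mCh* libraries. In both subunits every mCh- library was above every mCh* library, with a ratio of the means of 1.07 for the large subunit and 1.09 for the small subunit. The log2 ratio of the large subunit sum to the small subunit sum was 0.21, 0.25 and 0.23 in mCh- libraries and 0.25, 0.24 and 0.27 in mCh* libraries. These ratios overlapped between the groups. No p was computed for these sums.

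As a share of all counts, the difference was larger. Large subunit members took 0.279 ± 0.000380% of counts in mCh- libraries and 0.219 ± 0.00718% in mCh* libraries, and small subunit members took 0.238 ± 0.00328% in mCh- libraries and 0.184 ± 0.00702% in mCh* libraries (SD, n = 3 each). With the cytosolic ribosomal protein genes left out of the total, the shares were 0.353% in mCh- libraries and 0.327% in mCh* libraries for the large subunit. For the small subunit they were 0.301% in mCh- libraries and 0.274% in mCh* libraries.

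**Figure D3:**
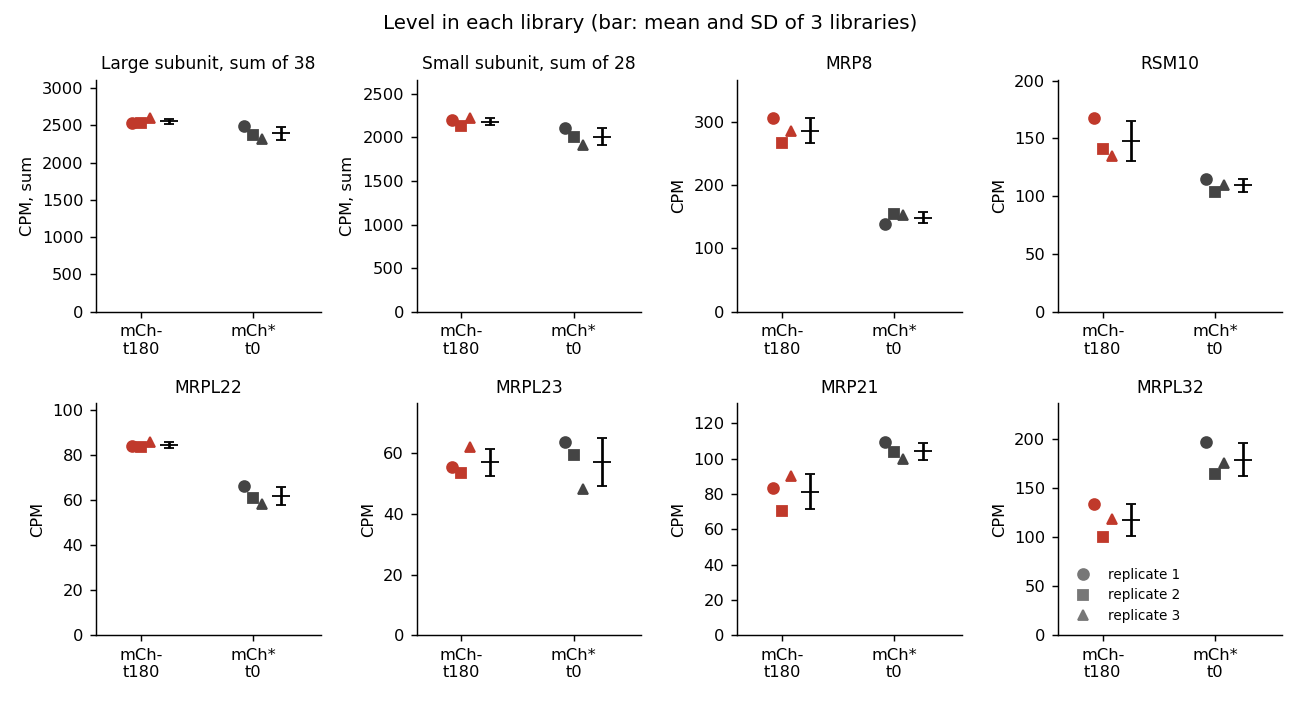
Each panel gives the level in CPM of the 3 mCh- t180 libraries (left) and the 3 mCh* t0 libraries (right) for the sum of each subunit and for 6 members, with the symbol showing the replicate number and the bar the mean and SD of 3 libraries. The subunit sums differ by ratios of 1.07 and 1.09, MRP8 by 1.93, and MRPL32 lies lower in all 3 mCh- libraries.

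Among large subunit proteins, MRPL22, the counterpart of a bacterial protein that lines the exit tunnel, had the largest rise. It is encoded at chrXIV:303686-304615 on the minus strand. Its level was 84.2, 83.7 and 85.9 CPM in mCh- libraries, against 66.4, 61.3 and 58.5 CPM in mCh* libraries. All mCh- libraries were above all mCh* libraries, the log2 fold change was 0.45 ± 0.08 (SE) and the adjusted p 0.000169 (edgeR's quasi-likelihood test). The next rises were in 3 proteins specific to mitochondria. MRPL25 had 51.0, 54.8 and 51.3 CPM in mCh- libraries, against 38.8, 44.0 and 38.8 CPM in mCh* libraries (log2 fold change 0.37 ± 0.09, adjusted p 0.00207, edgeR). MRP49 had 76.1, 70.7 and 68.2 CPM in mCh- libraries, against 62.7, 55.3 and 53.4 CPM in mCh* libraries (0.33 ± 0.09, adjusted p 0.00445, edgeR). The groups of both genes were apart. MRPL28 had 45.2, 60.2 and 51.7 CPM in mCh- libraries, against 43.0, 44.1 and 39.7 CPM in mCh* libraries (log2 fold change 0.31 ± 0.10, adjusted p 0.019, edgeR). Its groups also did not overlap, but the lowest mCh- library was close to the highest mCh* library, and the adjusted p was 0.138 without mCh- replicate 2 and 0.0595 without mCh* replicate 3.

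MRPL32 moved against the family. It is the counterpart of a bacterial large subunit protein and, in yeast, a known substrate of the m-AAA protease, which cleaves it after import; it is encoded at chrIII:118620-119171 on the plus strand. Its level was 134, 100.2 and 118 CPM in mCh- libraries, against 196, 164 and 175 CPM in mCh* libraries. Every mCh- library was below every mCh* library, and the log2 fold change was -0.61 ± 0.10 (SE, adjusted p 0.000125, edgeR's quasi-likelihood test). It kept this call in every alternative tried. MRP35, also of the large subunit and picked here after its values were seen, was the other member called lower, with 72.4, 55.6 and 61.2 CPM in mCh- libraries and 79.7, 71.4 and 74.2 CPM in mCh* libraries. Its groups overlapped, its log2 fold change was -0.25 ± 0.10 (adjusted p 0.0382, edgeR), and the estimate was 0.0035 with library sizes alone. Its call was lost in 4 of 6 fits with 1 library left out, with adjusted p between 0.0545 and 0.169.

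In the small subunit, RSM10, the counterpart of a bacterial protein of the subunit's head, rose most. It is encoded at chrIV:539803-540414 on the plus strand. RSM10 had 167, 141 and 134 CPM in mCh- libraries, against 115, 103 and 110 CPM in mCh* libraries. The groups were apart, and the log2 fold change was 0.43 ± 0.09 (SE, adjusted p 0.000752, edgeR's quasi-likelihood test). RSM23, a GTP-binding protein of the subunit specific to mitochondria, had 72.1, 63.3 and 62.5 CPM in mCh- libraries, against 52.1, 53.5 and 55.9 CPM in mCh* libraries (log2 fold change 0.29 ± 0.08, adjusted p 0.00767, edgeR). RSM19, whose bacterial counterpart is also in the head, had 65.6, 71.9 and 82.0 CPM in mCh- libraries, against 63.7, 56.2 and 57.2 CPM in mCh* libraries (0.31 ± 0.09, adjusted p 0.0106, edgeR). Neither gene's groups overlapped, although RSM19 lost the call without mCh- replicate 3 (adjusted p 0.0715) and without mCh* replicate 2 (0.0528). MRP1, specific to mitochondria, had 61.5, 60.1 and 64.4 CPM in mCh- libraries, against 47.9, 59.9 and 44.5 CPM in mCh* libraries. The second mCh* library was almost level with the lowest mCh- library, and the call (log2 fold change 0.29 ± 0.10, adjusted p 0.0255, edgeR) was lost without mCh- replicate 3 (0.0766), without mCh* replicate 1 (0.0883) and without mCh* replicate 3 (0.114).

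The small subunit member called lower was MRP21, a counterpart of a bacterial small subunit protein encoded at chrII:48825-49358 on the plus strand. It had 83.2, 70.5 and 90.4 CPM in mCh- libraries, against 109, 104 and 99.7 CPM in mCh* libraries. The groups did not overlap and the log2 fold change was -0.36 ± 0.09 (SE, adjusted p 0.00398, edgeR's quasi-likelihood test), while with library sizes alone it was -0.10 with an adjusted p of 0.333.

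Several members had differences near 0. MRPL23 had 55.4, 53.5 and 62.0 CPM in mCh- libraries, against 63.7, 59.4 and 48.2 CPM in mCh* libraries, with a 95% interval of the log2 fold change of -0.22 to 0.22. MRPL9, the counterpart of a bacterial protein that reaches towards the peptidyl transferase centre, had 57.5, 61.6 and 66.6 CPM in mCh- libraries, against 61.2, 63.0 and 60.1 CPM in mCh* libraries (interval -0.16 to 0.19). The groups of both overlapped in full. In the small subunit, MRPS35 had an interval of -0.23 to 0.19 and MRP2 one of -0.22 to 0.18. RSM22, the associated factor, had 43.5, 50.4 and 51.2 CPM in mCh- libraries, against 47.4, 45.7 and 43.7 CPM in mCh* libraries, with a log2 fold change of 0.08 ± 0.09 (SE, adjusted p 0.443, edgeR). Its groups overlapped. With library sizes alone, all 5 were called higher by edgeR, with log2 fold changes of 0.25 for MRPL23 (adjusted p 0.0394), 0.26 for MRPL9 (0.00999), 0.23 for MRPS35 (0.0468), 0.23 for MRP2 (0.046) and 0.34 for RSM22 (0.00386), beside the median of 0.27 over all genes on that scale.

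MRP8, the member that is not counted to either subunit, differed most of all 67. It lies at chrXI:178515-179174 on the plus strand. Its level was 306, 267 and 286 CPM in mCh- libraries, against 138, 155 and 153 CPM in mCh* libraries. Even the lowest mCh- library was far above the highest mCh* library, the fold change was 1.93 (log2 fold change 0.95 ± 0.08, SE) and the adjusted p was 1.8e-07 (edgeR's quasi-likelihood test). Its log2 fold change was thus more than the largest among the 66 subunit members, 0.45, and it was 1 of the 2 members without the Puf3 motif.

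**Figure D4:**
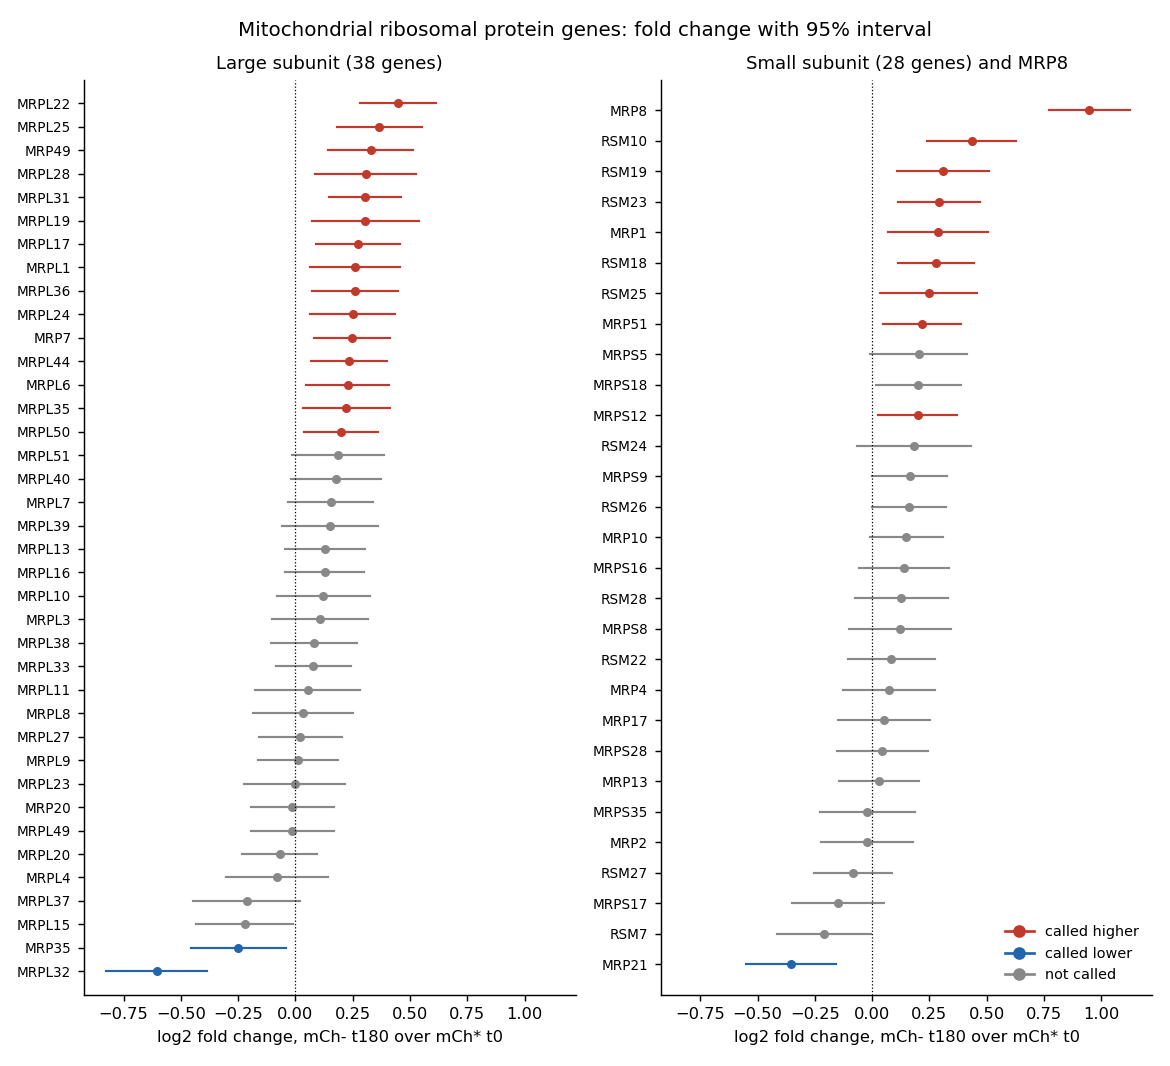
The horizontal axis is the log2 fold change, mCh- t180 over mCh* t0, with its 95% interval, for each large subunit member (left) and each small subunit member and MRP8 (right), coloured by call at an adjusted p below 0.05 (edgeR). Most points lie between 0 and 0.45, MRPL32 (-0.61), MRP35 (-0.25) and MRP21 (-0.36) lie lower, the last 2 at 0.0035 and -0.10 with library sizes alone, and MRP8 (0.95) stands apart.

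By class, 13 of 41 members with a bacterial counterpart were called higher (31.7%, beside 29.5% of all genes tested) and 3 lower (7.32%, beside 28.2%), with a median log2 fold change of 0.13. Among the 24 members specific to mitochondria, 10 were called higher (41.7%) and 14 not called, with a median of 0.17. All 24 had an interval within 1.5-fold. The 3 lower calls, MRPL32, MRP21 and MRP35, were of proteins with a bacterial counterpart. The classes were not tested against each other.

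Levels per length varied far more between members than between the times. CPM per kb of coding sequence ran from 27.2 to 418 with a median of 102 over the large subunit in mCh- libraries, and from 28.8 to 396 with a median of 81.4 in mCh* libraries. The small subunit ran from 25.6 to 487 with a median of 90.6 in mCh- libraries, and from 24.2 to 442 with a median of 80.7 in mCh* libraries. The order of members was almost the same at both times, with a Spearman correlation over genes of 0.986 for the 38 large subunit members and 0.973 for the 28 small subunit members, as a description over genes in the same libraries.

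MRPL33 and MRPL44 led the large subunit. MRPL33 had 418 ± 21.8 CPM per kb in mCh- libraries and 396 ± 16.0 in mCh* libraries, and MRPL44, the only member with an intron, had 360 ± 24.9 in mCh- libraries and 306 ± 4.59 in mCh* libraries (SD, n = 3 each). MRPS16 had 487 ± 34.3 CPM per kb in mCh- libraries and 442 ± 50.2 in mCh* libraries, and MRPS12, whose bacterial counterpart works at the decoding centre, had 308 ± 23.2 in mCh- libraries and 269 ± 12.3 in mCh* libraries. At the low end stood MRPL4, whose bacterial counterpart sits at the tunnel exit, with 27.2 ± 1.43 CPM per kb in mCh- libraries and 28.8 ± 2.38 in mCh* libraries. MRPL35 had 42.2 ± 2.47 in mCh- libraries and 36.2 ± 2.48 in mCh* libraries, RSM22 had 25.6 ± 2.23 in mCh- libraries and 24.2 ± 0.980 in mCh* libraries, and MRPS35 had 41.9 ± 3.31 in mCh- libraries and 42.6 ± 4.27 in mCh* libraries. The highest genes named here had coding lengths of 261 to 462 bases and the lowest of 960 to 1887 bases. Whether the level per kb follows length was not tested. Of these 8, MRPL44 (log2 fold change 0.24 ± 0.08, adjusted p 0.0177), MRPL35 (0.22 ± 0.09, 0.0444) and MRPS12 (0.20 ± 0.08, 0.0481) were called higher by edgeR's quasi-likelihood test. Each of these 3 calls was lost in at least 3 of the 6 fits with 1 library left out: for MRPL44 without mCh- replicate 1, mCh* replicate 1 or mCh* replicate 2 (adjusted p 0.0532 to 0.0809), for MRPL35 without mCh- replicate 1 or 3 or mCh* replicate 1 or 3 (0.0762 to 0.170), and for MRPS12 in every such fit but the one without mCh- replicate 1 (0.0544 to 0.188).

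The fold change had next to no relation to length or level within the family. Spearman's rho over the 66 subunit members was 0.05 with coding length and 0.03 with the level per kb, as descriptions over genes. Members were short, with coding lengths of 213 to 1887 bases and a median of 699, against a median of 1197 over nuclear protein-coding genes. With a loess trend on coding length and GC content taken out of each library, both subunits had a median of 0.20, and 34 members were called higher and 2 lower, beside 27.4% and 30.5% of all genes. Coding sequences of MRP4, MRPL19 and MRPL51 overlap another annotated gene, so their counts are uncertain.

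Members with more than 1 Puf3 motif had a median log2 fold change of 0.25 (n = 13), those with 1 motif 0.13 (n = 52). Members with a C at the second base before the motif had a median of 0.13 (n = 52), those with the motif but without this C 0.22 (n = 13). Outside the 67 members, 767 tested nuclear protein-coding genes with the motif had a median of 0.10 and the genes without it 0.01. The 767 still include the 14 mitoribosomal proteins named by another pattern and many other mitochondrial translation genes. Among the 767, the 197 with the C had a median of 0.21, so the lower median with this C was not seen among them. The genes of the 767 without the C were not summarised apart. In the promoter, 250 bases before the start of the coding sequence on either strand, AATTTT was found for 25 of 67 members (37.3%), 48.6% of nuclear protein-coding genes and 52.6% of cytosolic ribosomal protein genes. Subunit members with and without it had medians of 0.15 and 0.13.

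The cytosolic ribosomal protein genes went the other way: 135 of 137 were called lower by edgeR (98.5%, beside 28.2% of all genes tested). Their median log2 fold change was -0.84, beside 0.14 for the mitochondrial subunit members.

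For 14 mitoribosomal proteins named by another pattern, the log2 fold changes had 0.15 as their median. Of these, 5 were called higher (35.7%, beside 29.5% of all genes tested) and 9 not called. There were 9 higher calls with the loess trend taken out and 13 with library sizes alone. DESeq2 gave 3, and the 5 also became 3 without mCh- replicate 1, without mCh- replicate 3, without mCh* replicate 2 and without mCh* replicate 3. PET123, a small subunit protein, had 75.2, 82.6 and 78.4 CPM in mCh- libraries, against 54.0, 58.0 and 64.1 CPM in mCh* libraries (log2 fold change 0.42 ± 0.09, adjusted p 0.000577, edgeR). EHD3 had a log2 fold change of 0.44 ± 0.10 and NAM9, a small subunit protein, of 0.28 ± 0.08, and the groups of these 3 genes were apart. VAR1, the small subunit protein encoded in mitochondria, had 8, 3 and 14 counts in mCh- libraries and 5, 3 and 2 counts in mCh* libraries, too few to pass the filter in these polyA libraries.

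The 6 genes for mitoribosome assembly had a median log2 fold change near that of all genes, 0.02. MRM2, a methyltransferase of the large subunit RNA, was called higher (69.9, 73.4 and 71.1 CPM in mCh- libraries, 53.8, 49.9 and 57.4 CPM in mCh* libraries, log2 fold change 0.41 ± 0.08, adjusted p 0.000482, edgeR). MRH4, a helicase of large subunit assembly, was called lower (21.8, 23.2 and 22.6 CPM in mCh- libraries, 25.7, 30.0 and 29.4 CPM in mCh* libraries, log2 fold change -0.33 ± 0.10, adjusted p 0.0132, edgeR). The groups of both were apart. MRH4 lost the call without mCh* replicate 2 (adjusted p 0.0643) and with library sizes alone (0.534). Without mCh- replicate 3 or mCh* replicate 3, the lower calls in this list were 2. MTG1, MTG2, MRM1 and GEP3 were not called, with log2 fold changes between -0.19 and 0.10.

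Of 9 translation factors of mitochondria, 8 were called higher (88.9%, beside 29.5% of all genes tested), with a median log2 fold change of 0.44 beside 0.14 for the subunit members. MEF2, an elongation factor G-like protein, had 78.5, 74.2 and 68.4 CPM in mCh- libraries, against 42.5, 39.5 and 32.8 CPM in mCh* libraries (0.94 ± 0.10, adjusted p 1.13e-06, edgeR). TUF1, the mitochondrial elongation factor Tu, had 189, 193 and 235 CPM in mCh- libraries, against 122, 143 and 123 CPM in mCh* libraries (0.67 ± 0.10, adjusted p 2.8e-05, edgeR). The initiation factor gene IFM1 had a log2 fold change of 0.44 ± 0.10, and the groups of all 3 genes were far apart.

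Of 17 genes that charge mitochondrial tRNAs, 12 were called higher (70.6%, beside 29.5% of all genes tested) and 5 not called, with a median of 0.36. DESeq2 called 9 higher, and the median was 0.26 with the loess trend taken out. The synthetase genes MSF1 (phenylalanine), MSD1 (aspartate) and MSK1 (lysine) had the smallest adjusted p among them (edgeR). Their log2 fold changes were 0.85 ± 0.10, 0.69 ± 0.09 and 0.57 ± 0.08, and their groups did not overlap. DIA4 (0.69 ± 0.13) and MST1 (0.58 ± 0.10), also called higher, had larger log2 fold changes than MSK1. Of 15 translational activators, which act on single mitochondrial messages, 11 were called higher (73.3%, beside 29.5% of all genes tested), with a median of 0.40. CBP6, which acts on the cytochrome b message, had 52.3, 61.8 and 54.8 CPM in mCh- libraries, against 36.0, 33.6 and 33.2 CPM in mCh* libraries (0.72 ± 0.09, adjusted p 7.07e-06, edgeR). SOV1, needed for Var1, and PET111, the activator for Cox2, had log2 fold changes of 0.60 ± 0.10 and 0.60 ± 0.11. No difference between these lists and the ribosomal proteins was tested.

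Genes that dock the ribosome at the inner membrane and insert its products, OXA1, MBA1, MDM38 and YLH47, had 0 of 4 calls by edgeR and a median of -0.13. At an unadjusted p below 0.05 there was 1 lower gene, MDM38, and DESeq2 called 1 lower. MDM38 had 73.1, 75.8 and 83.3 CPM in mCh- libraries, against 95.9, 89.7 and 82.1 CPM in mCh* libraries (log2 fold change -0.20 ± 0.08, adjusted p 0.0512, edgeR). These groups overlapped slightly. The list had 2 lower calls without mCh- replicate 3 and 1 without mCh* replicate 3.

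Of 7 genes of mitochondrial RNA synthesis and turnover, with a median of 0.15, 2 were called higher (28.6%, near the 29.5% of all genes tested). PET127, which acts in processing of message ends, had a log2 fold change of 0.73 ± 0.09. DSS1, the exonuclease of the mitochondrial degradosome, had 0.51 ± 0.10. Without mCh- replicate 3, 4 of these genes were called higher. The median of these 7 genes was -0.10 with the loess trend taken out. RPO41, the mitochondrial RNA polymerase, its specificity factor MTF1, RPM2, RMD9 and the helicase gene SUV3 were not called, with log2 fold changes between -0.03 and 0.16.

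**Figure D5:**
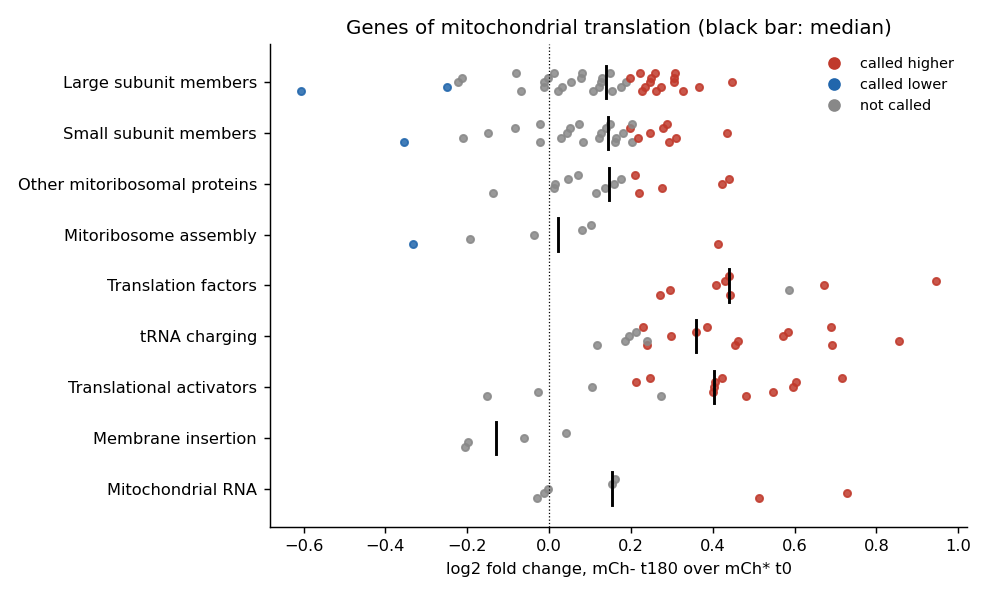
Each point is a gene, with its log2 fold change, mCh- t180 over mCh* t0, on the horizontal axis, its list on the vertical axis and its colour giving the call at an adjusted p below 0.05 (edgeR), with a black bar for the median of the list. Medians were 0.14 for both subunits, 0.15 for other mitoribosomal proteins, 0.02 for assembly, 0.44 for translation factors, 0.36 for tRNA charging, 0.40 for translational activators, -0.13 for membrane insertion and 0.15 for mitochondrial RNA. The last of these was -0.10 with the loess trend taken out.

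Among regulators, PUF3 itself was higher, with 62.5, 64.02 and 59.2 CPM in mCh- libraries, against 40.8, 42.1 and 48.9 CPM in mCh* libraries. The groups were apart (log2 fold change 0.49 ± 0.09, adjusted p 0.000217, edgeR's quasi-likelihood test). HAP1, a heme-responsive activator, and HAP5, a subunit of the Hap2/3/4/5 complex that activates respiratory genes, were also called higher, with log2 fold changes of 0.33 ± 0.08 and 0.42 ± 0.11. HAP4, the activating subunit of that complex, had 464, 410 and 283 CPM in mCh- libraries, against 552, 583 and 529 CPM in mCh* libraries, and mCh- replicate 3 was lowest by a wide margin. It was called lower (-0.52 ± 0.14, adjusted p 0.00385, edgeR), though not with library sizes alone (adjusted p 0.112). HAP3 was called lower (-0.35 ± 0.12, adjusted p 0.0189, edgeR), but lost the call without mCh- replicate 1 (0.0652), without mCh* replicate 2 (0.0781) and with library sizes alone (0.506). HAP2 was not called (-0.06 ± 0.12).

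Of 34 nuclear genes of the respiratory chain and ATP synthase, 9 were called higher (26.5%, beside 29.5% of all genes tested) and 6 lower (17.6%, beside 28.2%), with a median of 0.17. With library sizes alone 25 were higher and 2 lower, and with the loess trend taken out 18 were higher and 3 lower. SDH1 and SDH4, subunits of succinate dehydrogenase, had log2 fold changes of 0.66 ± 0.08 and 0.52 ± 0.09, and CYT1, cytochrome c1, of 0.62 ± 0.09. TIM11, a subunit of the ATP synthase, and COX9 and COX7, subunits of cytochrome c oxidase, had -0.77 ± 0.10, -0.61 ± 0.10 and -0.50 ± 0.11. The 6 lower calls became 3 without mCh- replicate 2 and 3 without mCh* replicate 1, and COX7 was not called with library sizes alone (adjusted p 0.0694).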

How the data were processed

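Stranded polyA RNA-seq libraries were analysed from 6 samples, 3 at 180 min and 3 at 0 min, grouped by title. The values are counts of reads per gene, deposited by the authors without normalization. The submitters' processing notes name STAR 2.5.3a, HTSeq 0.6.1p1, cutadapt 1.10 and bcl2fastq 2.20.0.422, and the builds R64 and sacCer3. How strand and multiply mapped reads were counted is not given in the sources used here. Identifiers were matched to the RefSeq annotation of R64, 6047 by locus tag and 41 by symbol. The 1039 without a match held 0.469% of counts.

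Tests ran in edgeR 4.0.16 under R 4.3.3 (TMM factors, default filter on low counts, quasi-likelihood F test, Benjamini-Hochberg adjustment over 6220 genes; 907 were removed). The alternatives were DESeq2 1.42.0, other scalings, no filter, nuclear protein-coding genes alone, a loess correction (length, GC content), the replicate number as a block, a threshold of 0.01 and each library left out. The p-values measure the spread between these libraries. On counts simulated for 6220 genes, the test called 22% of genes changed 1.2-fold, 80% at 1.5-fold, 92% at 2-fold and 98% at 4-fold, and 9 of its 155 calls were false. Only 50 genes were changed at each fold, so the adjustment was stricter than in the data, where 57.7% of genes were called. Same-numbered libraries did not deviate together (correlations -0.0197, -0.0328 and -0.179), so numbers were not taken as pairs. No 2 libraries were duplicates: replicates of a group differed by a chi-square of at least 25.7 per degree of freedom.

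The members and lists were chosen with earlier results of these data known, so lists are described by counts and medians without a test. Named in each subunit were the 4 largest rises and falls among called members with groups apart, the 2 highest and 2 lowest levels per kb and the 2 members not called nearest to 0, with MRP8 and RSM22. In other lists, all genes were named where at most 8 were tested, otherwise up to 3 called in each direction with the smallest adjusted p. MRP35, MRPL31, RSM18, DIA4 and MST1 were named after their values were seen. Motif windows were read from the R64 sequence.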

Additional observations from a re-analysis of the deposited data

How the results depend on the processing

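Of 960 values of 64 named genes under alternatives, 876 kept direction and side of the threshold, 53 lost the call, 26 gained one and 5 reversed, all 5 with library sizes alone: log2 fold changes of 0.25 for MRPL23, 0.23 for MRPS35, 0.23 for MRP2, 0.0035 for MRP35 and 0.25 for RMD9. That setting has no composition factors. With it, 57 members were called higher and 1 lower (large subunit 32 and 1, small subunit 24 and 0), 2996 genes in all were higher and 969 lower, and the medians were 0.39 for the large and 0.40 for the small subunit. At an adjusted p below 0.01, 8 members were called higher, with 4 higher and 1 lower in the large subunit and 3 higher in the small subunit. With the length and GC trend removed, 1 large subunit member was lower, 14 small subunit members were higher, and the medians were 0.20 and 0.20. Tested among nuclear protein-coding genes alone, 2 small subunit members were lower. Without the cytosolic ribosomal protein genes in the total, shares of counts were 0.353% in mCh- libraries and 0.327% in mCh* libraries (large subunit), and 0.301% and 0.274% (small subunit). The cause of these differences was not tested. Leaving out each library in turn gave 13 to 20 members higher and 2 to 5 lower, 8 to 11 higher and 1 to 3 lower in the large subunit, 4 to 8 higher and 1 to 2 lower in the small subunit, medians of 0.11 to 0.17 and 0.076 to 0.16, a difference of medians of -0.024 to 0.032, and 1597 to 1767 genes higher and 1546 to 1710 lower over the whole table. With the replicate number as a block, 20 members were called higher and 3 lower, 1727 and 1663 genes over the whole table, and 2 named genes, MRPL35 (adjusted p 0.0701) and MRPS12 (0.0849), lost the call. In simulated counts most 1.2-fold changes were missed. The changed genes there were drawn from all genes tested, at any level, so the share missed among genes at the members' levels is not known. The 40 members not called may still include differences of that size.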
